A study of Mus musculus with 153 samples.

Results

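The genes described are 41 transcripts of the contractile apparatus and the energy supply of skeletal muscle, measured in mouse tail skin. They were taken as a written list of symbols, each read from the probe set with the highest mean among those annotated with that symbol alone. All 41 were measured, among 18810 genes on the array. By the fibre type in which the protein is known to prevail, 14 are fast, 7 are slow and 20 are shared by both.

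Tail skin was collected untreated at 8 weeks of age from a backcross. A Mus spretus male was crossed with an FVB/N female lacking Hras, and the F1 daughters were mated to FVB/N males that were Hras-/- or Hras -/+. The 37 HET mice (Hras +/-, 19 males and 18 females) were compared with the WT mice (Hras +/+, 62 males and 52 females), and the 81 males with the 70 females. Arrays came from 3 plates, with 49, 46 and 56 mice. Each mouse is one array, and apart from the Hras label the spretus or FVB/N alleles it inherited at the members' own loci are not used here. The null Hras allele is a germline one and is not confined to skin or muscle. A further 2 arrays, both of WT males on plate 2, carry an outlier label and were left out. The mean of the members on those arrays, 3.93 and 4.44 on the log2 scale, lay within the range of the other mice.

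Skeletal muscle fibres shorten when myosin thick filaments pull on actin thin filaments, after calcium from the sarcoplasmic reticulum has bound troponin. Fast and slow fibres build this machine from different isoforms, each encoded by its own gene, and draw on the same Z-disc scaffold and creatine kinase buffer. Mouse skin of the trunk is underlain by a thin sheet of such muscle, and in the tail the segmental muscles and their tendons run beneath the skin. In bulk tissue, fewer muscle fibres in a sample and less RNA per fibre cannot be told apart.

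Array medians ran from 4.67 to 4.89 (log2), and 10 of the 41 members had a mean above the median of all genes. Krt5, a keratin of the basal epidermis, lay between 11.6 and 12.2 on every array of this skin. Cardiac markers were set beside the members because several slow isoforms are shared with the heart. The 4 measured, Nppa, Tnni3, Myl7 and Mybpc3, had their highest values over all mice between 3.47 and 4.50. Hras itself is not analysed here, and the HET and WT labels were taken as given.

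Promoters of 31 members are held in the RefSeq windows of build GRCm38.p6, which cover 300 bases around each annotated start (38 windows, since some genes have several starts). The windows shown are those of the members on which the results below turn. They are Acta1 (alpha-actin, chr8:123894726-123895025, minus strand), Ckm (muscle creatine kinase, chr7:19410844-19411143, plus strand), the fast genes Myh1 (chr11:67199852-67200151, plus strand) and Pvalb (chr15:78206351-78206650, minus strand), and the slow genes Myh7 (chr14:54994577-54994876, minus strand) and Myl2 (chr5:122092474-122092773, plus strand). Of genes with several windows the one listed first is shown. Capitals mark matches on either strand to 5 short motifs: CAGCTG (an E-box form bound by MyoD family factors), CATTCC (bound by TEAD factors), TATAAA, the CArG box (bound by serum response factor) and the MEF2 site.
Acta1: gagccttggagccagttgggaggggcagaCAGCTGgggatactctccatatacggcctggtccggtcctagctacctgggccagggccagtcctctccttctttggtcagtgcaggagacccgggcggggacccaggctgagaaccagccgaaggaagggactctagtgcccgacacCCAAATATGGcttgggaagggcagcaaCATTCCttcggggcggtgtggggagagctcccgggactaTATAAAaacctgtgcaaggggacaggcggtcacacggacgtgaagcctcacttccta
Ckm: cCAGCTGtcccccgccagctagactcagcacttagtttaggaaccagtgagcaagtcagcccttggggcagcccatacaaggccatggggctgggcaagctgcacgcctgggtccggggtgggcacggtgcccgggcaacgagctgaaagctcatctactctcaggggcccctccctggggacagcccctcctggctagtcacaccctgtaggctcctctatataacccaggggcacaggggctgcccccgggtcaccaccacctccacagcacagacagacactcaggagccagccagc
Myh1: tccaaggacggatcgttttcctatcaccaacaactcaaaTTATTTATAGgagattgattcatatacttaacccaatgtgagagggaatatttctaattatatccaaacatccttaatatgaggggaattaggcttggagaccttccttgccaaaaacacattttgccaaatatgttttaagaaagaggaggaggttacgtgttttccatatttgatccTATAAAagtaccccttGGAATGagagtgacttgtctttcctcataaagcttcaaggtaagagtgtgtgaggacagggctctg
Myh7: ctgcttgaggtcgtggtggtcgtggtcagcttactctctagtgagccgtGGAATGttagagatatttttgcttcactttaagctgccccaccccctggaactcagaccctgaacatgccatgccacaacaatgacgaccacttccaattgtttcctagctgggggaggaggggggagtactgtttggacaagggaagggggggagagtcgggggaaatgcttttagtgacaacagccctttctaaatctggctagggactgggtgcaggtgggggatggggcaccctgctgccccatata
Myl2: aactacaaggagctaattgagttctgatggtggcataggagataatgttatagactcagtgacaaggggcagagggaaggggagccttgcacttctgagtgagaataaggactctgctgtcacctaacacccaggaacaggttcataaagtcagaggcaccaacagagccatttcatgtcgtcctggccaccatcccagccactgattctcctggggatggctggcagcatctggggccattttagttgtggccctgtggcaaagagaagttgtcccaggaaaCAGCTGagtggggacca
Pvalb: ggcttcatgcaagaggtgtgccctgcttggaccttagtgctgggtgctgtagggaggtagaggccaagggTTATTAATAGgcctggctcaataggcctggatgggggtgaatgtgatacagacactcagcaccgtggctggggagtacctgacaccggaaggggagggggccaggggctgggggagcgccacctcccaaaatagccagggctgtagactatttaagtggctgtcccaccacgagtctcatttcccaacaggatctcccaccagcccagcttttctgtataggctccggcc
CAGCTG was found in 19 of the 38 members' windows, against 16.3% of all 32851 windows. It stands in the windows of Acta1, Ckm and Myl2 above. A CArG box was found in 5 (13.2%, against 1.63%), among them that of Acta1, and a MEF2 site in 6 (15.8%, against 3.19%), among them those of Myh1 and Pvalb. CATTCC was found in 12 (31.6%, against 14.7%) and TATAAA in 7 (18.4%, against 13.6%). In members' windows 2 MEF2 matches overlap a TATAAA match, 1 of them in the Myh1 window. These counts describe letters in these windows and say nothing of binding.

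The members differed between mice far more than most genes. Their list was written with earlier results of these data known, so their place among all genes is a description and no test. The median SD over 151 mice was 0.722 on the log2 scale for the 41 members and 0.223 for all genes. After genotype, sex and plate were removed, 21 members had an SD above the 99th percentile of all 18810 genes and 36 above the 95th. An SD of at least 1 was found in 14 members and in 71 genes overall. All 41 members were skewed towards high values, with a median skewness of 0.79, against 0.04 for all genes. The plot of levels by mouse shows this as long tails to the right. The mean of the 41 members in a mouse ran from 3.68 to 6.95, with a median of 4.53 and quartiles of 4.07 and 5.13.

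**Figure D1:**
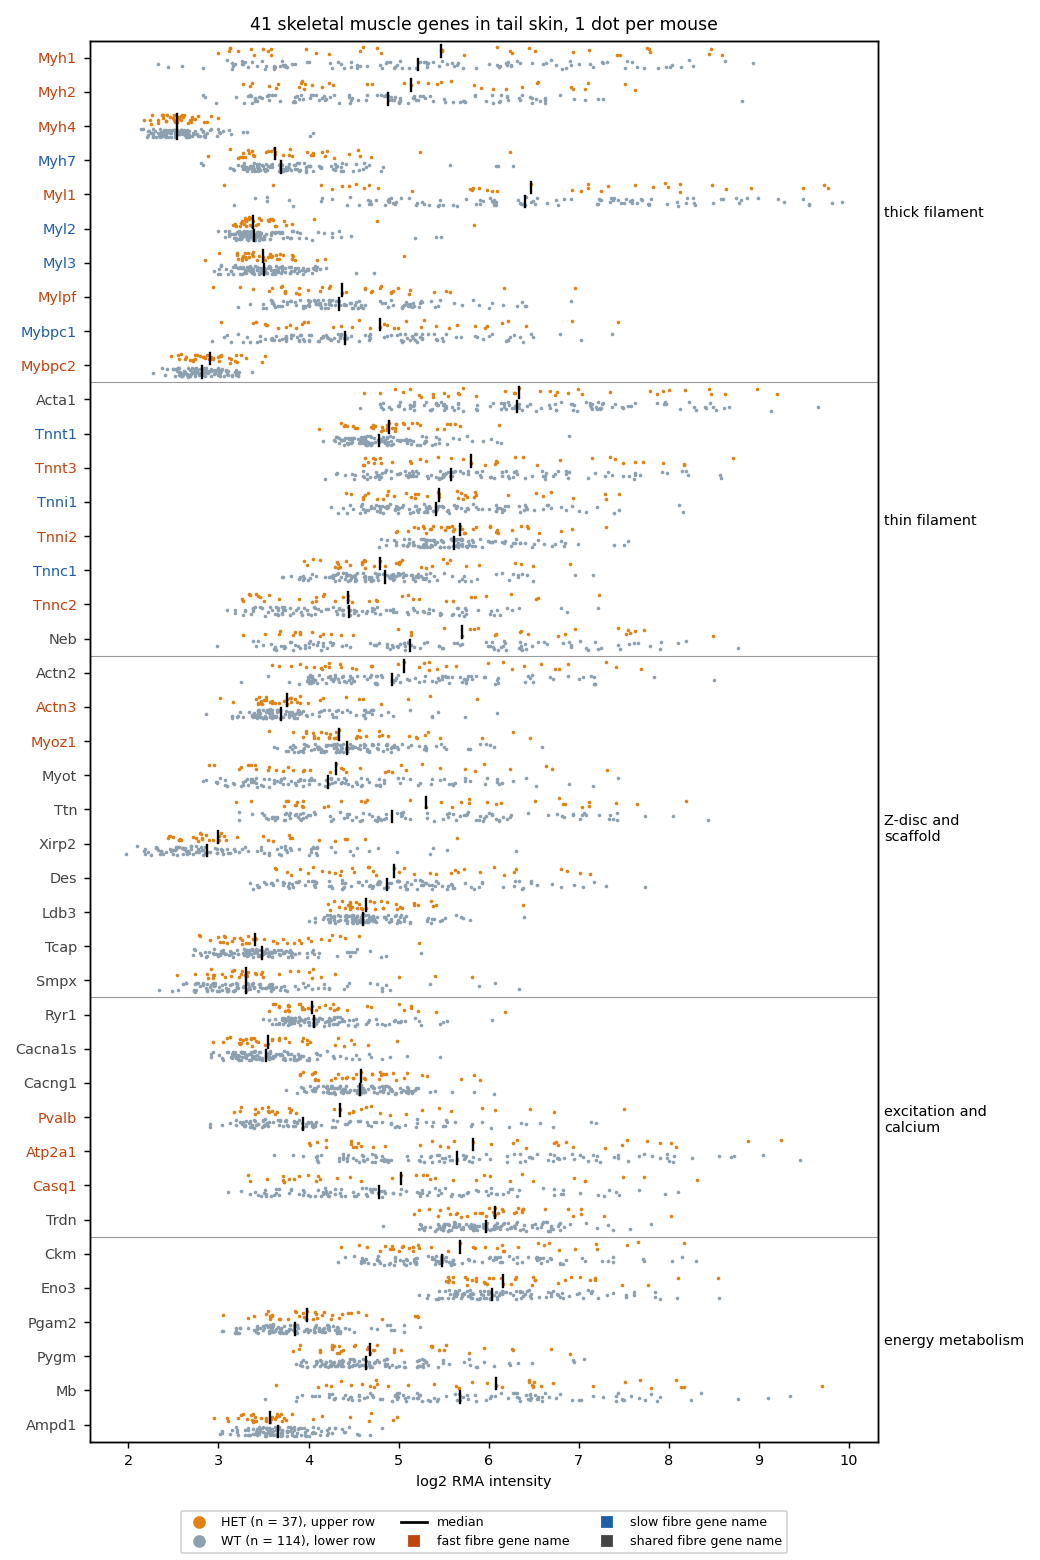
Log2 intensity (x axis) of each of the 41 members (rows, grouped by role) in each mouse, with HET mice in the upper row of each gene and WT mice in the lower row, and a bar at each group's median. Myh1 spans 2.33 to 8.93 over all mice and Mybpc2 2.28 to 3.51, and for every gene the HET and WT dots overlap.

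In the thick filament, the 3 myosin heavy chain genes of fast fibres differed widely in range. Myh1, the IIx heavy chain, had its lowest value at 2.33, its median at 5.23 and its highest at 8.93, a range of 97.3-fold. Myh2, the IIa heavy chain, ran from 2.83 through a median of 4.89 to 8.81. Myh4, the IIb heavy chain, stayed between 2.14 and 4.06 with a median of 2.54. The Myh4 median lay under 3.27, the highest of the arrays' lower quartiles, a level at which a probe set has little room to show a decrease. The slow heavy chain gene Myh7 ran from 2.80 to 6.28 (median 3.69). Among light chains, the fast essential chain gene Myl1 had a 117-fold range from 3.06 to 9.93 (median 6.40), and the fast regulatory chain gene Mylpf ran from 2.94 to 6.95 (median 4.34). The slow light chain genes Myl2 and Myl3 were narrower, with SDs of 0.44 and 0.34. Of the myosin-binding protein C genes, Mybpc1 (slow) had an SD of 1.00. Mybpc2 (fast) had one of 0.23, at the 53.5th percentile of all genes after adjustment. The Mybpc2 median, 2.83, also lay under 3.27, so its SD is that of a dim probe set. The sarcomeric myosin heavy chain genes are close in sequence, and whether their probes bind more than one transcript was not tested.

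In the thin filament, Acta1 ran from 4.57 through 6.32 to 9.66. Neb, which encodes the nebulin ruler along the filament, ran from 2.99 through 5.17 to 8.77. The troponin genes differed by fibre type, with the larger SD in the fast form of troponin T (Tnnt3 1.11, Tnnt1 0.45) and troponin C (Tnnc2 0.97, Tnnc1 0.71), and in the slow form of troponin I (Tnni2 0.56, Tnni1 0.82). No test was made of these SDs, which also depend on each probe set's own range.

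Of the Z-disc and scaffold genes, Ttn (the titin spring) ran from 3.20 through 5.02 to 8.43, Actn2 (alpha-actinin of all fibres) from 3.25 through 4.93 to 8.51 and Des (desmin filaments) from 3.35 through 4.88 to 7.74. Actn3, the alpha-actinin of fast fibres, had a lower SD (0.59) than Actn2 (1.06). Myot, Myoz1, Ldb3, Tcap, Smpx and Xirp2, which encode further proteins of the Z-disc and of its anchorage, had SDs between 0.42 and 1.06. The Xirp2 median, 2.91, was also under 3.27.

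Among the genes of calcium handling, Atp2a1, the calcium pump of fast fibres, ran from 3.62 through 5.65 to 9.45. Casq1, the calcium buffer of the reticulum, ran from 3.11 through 4.82 to 8.32, and Pvalb, the soluble calcium buffer parvalbumin, from 2.90 through 3.97 to 7.50. Genes of the voltage sensor and the release channel were narrower: SDs were 0.52 for Ryr1 (the release channel), 0.49 for Cacna1s (the voltage sensor), 0.44 for Cacng1 (its gamma subunit) and 0.56 for Trdn (triadin, which tethers Casq1 to Ryr1). Trdn has 18 probe sets, of which 15 correlated above 0.5 with the mean of the other members, so its level and spread depend on which one is read. Over those probe sets the SD ran between 0.20 and 1.58, and the one with the highest correlation (0.95) had an SD of 1.11.

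In energy metabolism, Mb (the oxygen store myoglobin) ran from 3.51 through 5.72 to 9.70 and Ckm from 4.32 through 5.52 to 8.30. The glycolytic genes Eno3 (enolase), Pgam2 (phosphoglycerate mutase) and Pygm (glycogen phosphorylase) had SDs of 0.70, 0.48 and 0.72, and Ampd1 (AMP deaminase) one of 0.40. A second Ckm probe set, not used here, had a median of 4.10 and a correlation of 0.11 with the mean of the other members, against 0.95 for the one used.

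The same mice were high for most members. A WT female on plate 3 was the highest of all mice for 19 members, and a HET male on plate 1 for 11. A second WT female on plate 3 was the highest for 4. Without the first 2 of these mice, which also had the highest means of the members (6.95 and 6.89), the members' median SD was 0.677. Over the 820 pairs of members the median Pearson correlation of residuals was 0.80 and the highest 0.99. Of the 41 members, 23 correlated above 0.9 with the mean of the others and 40 above 0.5. The highest were Actn2 (0.97) and Casq1 (0.97). The lower end was held by Myh7 (0.73), Myl2 (0.66), Myh4 (0.58) and Myl3 (0.56). Mybpc2 stood apart at 0.00, and its correlations with single members lay between -0.06 and 0.25. Of the other genes on the array, 0.767% correlated above 0.5 with the mean of the members.

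No member was called different between HET and WT skin. Of the 41, 0 were called by limma at an adjusted p under 0.05 over all genes, where 0.112% of all genes (21) were called. At an unadjusted p under 0.05 there was 1 member, Mybpc2, and 1235 of 18810 genes. The median difference over members was 0.10 on the log2 scale, with 36 of 41 above 0, while the median over all genes was 0.00. Since the members vary together over the same mice, these 41 signs are not separate observations. Standard errors ran from 0.04 to 0.31.

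Ckm had its lowest, median and highest values at 4.36, 5.68 and 8.17 in HET mice, against 4.32, 5.49 and 8.30 in WT mice. Its HET minus WT difference was 0.10 (95% confidence interval -0.24 to 0.43, limma adjusted p = 0.959). The groups overlapped over nearly their whole ranges. Acta1 had 4.62, 6.34 and 9.21 in HET mice, against 4.57, 6.31 and 9.66 in WT mice, with a difference of 0.15 (-0.29 to 0.59, limma adjusted p = 0.947). Myh2 had the largest difference, 0.28 (-0.17 to 0.73, limma adjusted p = 0.903), with 3.27, 5.14 and 7.63 in HET mice and 2.83, 4.88 and 8.81 in WT mice. The interval of Myh2 allows a difference in either direction. Mybpc2 had 2.48, 2.90 and 3.51 in HET mice, against 2.28, 2.82 and 3.37 in WT mice, a difference of 0.10 ± 0.04 (SE, p = 0.0215, limma adjusted p = 0.679). The Mybpc2 medians in both groups lay under 3.27. The difference between the means of the fast and the slow members in a mouse had its lowest, median and highest values at -0.43, 0.28 and 1.504 in HET mice, against -0.47, 0.28 and 1.43 in WT mice. Both ranges overlapped almost fully. Median differences between HET and WT of the 14 fast, 7 slow and 20 shared members were 0.10, 0.02 and 0.11.

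Within plates the median HET minus WT difference of the members was 0.08, 0.10 and 0.11 on plates 1, 2 and 3. On those plates 0 members were called, against 0, 18 and 0 of all genes. That median was 0.21 in males alone (41 of 41 above 0) and -0.04 in females alone (16 of 41 above 0). Over all genes 50.9% were above 0 in males and 48.5% in females. Again 0 members were called in either sex, against 0 of all genes in males and 10 in females. The genotype by sex term asks whether the HET minus WT difference is unlike in males and females. It was above 0 in all 41 members, with a median of 0.26 and standard errors from 0.08 to 0.62, and 0 members were called, as were 0% of all genes. Over all genes 52.4% were above 0, with a median of 0.005. The 41 signs are again not separate observations. At an unadjusted p under 0.05 there were 2 members, both of the thick filament: Mybpc2 (0.26 ± 0.08, SE, p = 0.0025) and Myl3 (0.31 ± 0.13, p = 0.0142), each with a limma adjusted p of 0.998. Over all genes 895 (4.76%) had such a p, a share near that of the members. Mybpc2 had a median of 3.02 in HET males, against 2.79 in WT males, and 2.86 in HET females, against 2.83 in WT females. The genotype by plate terms were not called in any member (smallest limma adjusted p = 0.584), and 0 of all genes were called. At an unadjusted p under 0.05 in that F-test there were 0 members, against 1706 of all genes (9.07%).

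Hras lies on chromosome 7, as do 8 of the members, so their places relative to Hras and their HET minus WT differences were examined. Linkage to the genotype label was not tested. By the cross as described, a WT mouse had its dam's spretus copy of Hras, whereas a HET mouse could have a spretus or an FVB/N copy. Effects of Hras dosage and of spretus alleles near Hras therefore cannot be told apart by these labels. Tnni2 and Tnnt3, the fast troponin I and T genes, lie 42 and 45 measured genes beyond Hras. The others lie farther on the opposite side, counted as negative, from Mylpf at -172 measured genes through Atp2a1 at -210 and Ckm at -1331 to Tnnt1 beyond them. The HET minus WT differences were 0.10 ± 0.11 (SE) for Tnni2 (limma adjusted p = 0.925) and 0.23 ± 0.21 for Tnnt3 (limma adjusted p = 0.912). With the mean of the members outside chromosome 7 as a covariate, which narrows the error, Tnnt3 differed by 0.09 ± 0.05 (p = 0.0431, limma adjusted p = 0.69) and Tnni2 by 0.04 ± 0.05. In that fit Mylpf differed by -0.17 ± 0.06 (p = 0.00384, limma adjusted p = 0.452), against -0.08 ± 0.15 without the covariate, and Mybpc2 by 0.10 ± 0.04 (p = 0.0218, limma adjusted p = 0.63). These 3 were the members at an unadjusted p under 0.05 in that fit, as were 7.08% of all genes (1331). None of the 8 was called in either fit.

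No member was called different between males and females either, although 3.62% of all genes (680) were called in this comparison. Of the 41 members, 39 were lower in males, and the median difference over all 41 was -0.13 on the log2 scale. An unadjusted p under 0.05 in limma was found for 2 members, against 3077 of all genes (16.4%). Over all genes, 44.9% were higher in males. Myh2 had its lowest, median and highest values at 2.83, 4.88 and 7.63 in males, against 3.28, 5.01 and 8.81 in females. Its male minus female difference was -0.43 ± 0.19 (SE, p = 0.0278, limma adjusted p = 0.232). Tnni1 had 4.25, 5.22 and 7.39 in males, against 4.48, 5.47 and 8.16 in females, a difference of -0.28 ± 0.13 (p = 0.035, limma adjusted p = 0.259). Both pairs of ranges overlapped widely. Neb (-0.40 ± 0.22), Atp2a1 (-0.39 ± 0.22) and Mb (-0.35 ± 0.21) were also lower in males without passing. The median difference was -0.19, -0.06 and -0.17 on plates 1, 2 and 3. In HET mice alone it was 0.05, with 28 of 41 above 0, and in WT mice alone -0.21, with 1 of 41 above 0 and 5 at an unadjusted p under 0.05, where 15.8% of all genes (2978) had such a p.

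**Figure D2:**
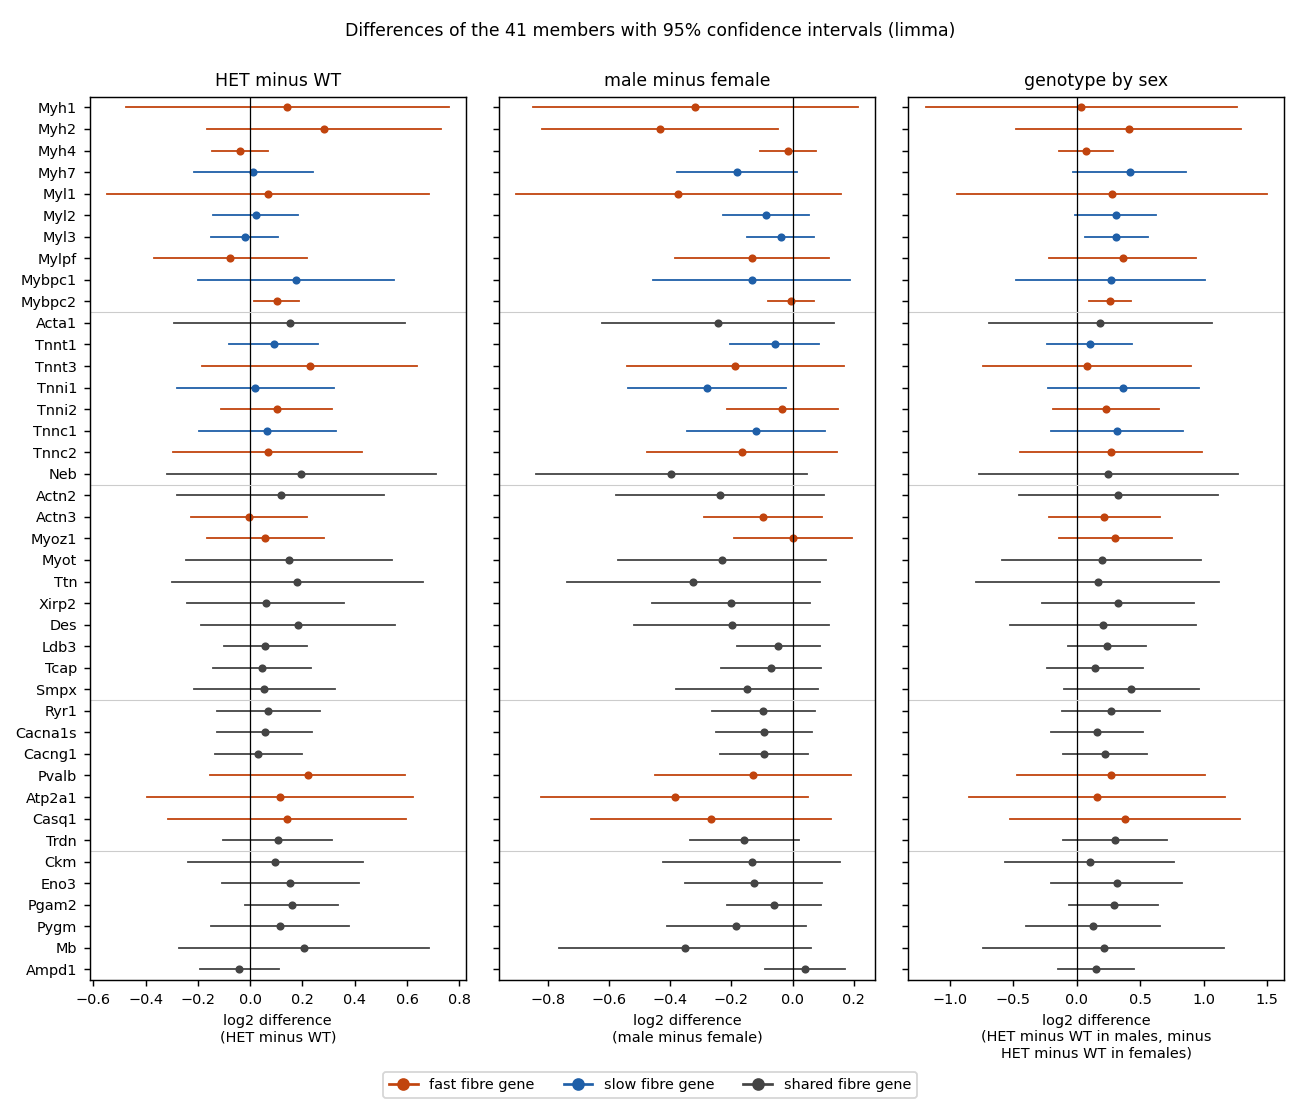
Log2 differences (x axis) of the 41 members (rows) for HET minus WT, for male minus female, and for the HET minus WT difference in males minus that in females, with dots for the limma estimate and lines for its 95% confidence interval. Most intervals cover 0 in each panel: Mybpc2 lies clear of it in the first, Myh2 and Tnni1 in the second, and Mybpc2 and Myl3 in the third, none of them with an adjusted p under 0.05.

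No member was called different between plates. Plate 2 minus plate 1 had a median over members of -0.16, plate 3 minus plate 1 one of -0.17 and plate 3 minus plate 2 one of -0.02. In the F-test of plate 0 of 41 members were called, against 0.0213% of all genes (4), and 0 members had an unadjusted p under 0.05. The single contrasts called 0%, 0.0213% and 0.0213% of all genes. Ckm had medians of 5.71, 5.48 and 5.39 on plates 1, 2 and 3, and Myh1 medians of 5.47, 5.12 and 4.83. Over all genes only 0.808% had an unadjusted p under 0.05 in the F-test of plate, and no source used here says whether the deposited values had been adjusted for plate.

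Fast and slow isoforms of the same protein were then compared mouse by mouse. Correlations were computed on residuals after genotype, sex and plate, with two-sided permutation tests and Benjamini-Hochberg adjustment over 23 pairs of genes (1e-05 is the smallest p that 100000 draws can give). Of the 23 pairs, 17 passed at an adjusted p under 0.05, all with a positive r. The pairs were chosen with earlier results of these data known, so their p-values are not independent evidence. The troponin isoforms varied together. Pearson's r was 0.84 for Tnnc2 and Tnnc1 (rho 0.81), 0.82 for Tnnt3 and Tnnt1 (rho 0.77) and 0.76 for Tnni2 and Tnni1 (rho 0.69), each with permutation adjusted p-values of 1.5e-05 for r and 1.9e-05 for rho. The myosin pairs had lower values, and no test compared them with those of troponin. The pair Mylpf and Myl2 had an r of 0.59 (rho 0.45), Myl1 and Myl3 one of 0.48 (rho 0.44), and Myh4 and Myh7 one of 0.42 (rho 0.34), with permutation adjusted p-values of 1.5e-05 for each r and at most 6.1e-05 for each rho. Myh7 had a higher r with the other fast heavy chain genes, 0.58 with Myh1 and 0.65 with Myh2, than with Myh4, whose level was low (given as a description). Mybpc2 and Mybpc1 had an r of -0.01 (rho -0.05, permutation adjusted p = 0.91 and 0.62). The mean of the 14 fast members and the mean of the 7 slow members had an r of 0.89 over mice (0.90, 0.86 and 0.93 on plates 1, 2 and 3), given as a description.

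**Figure D3:**
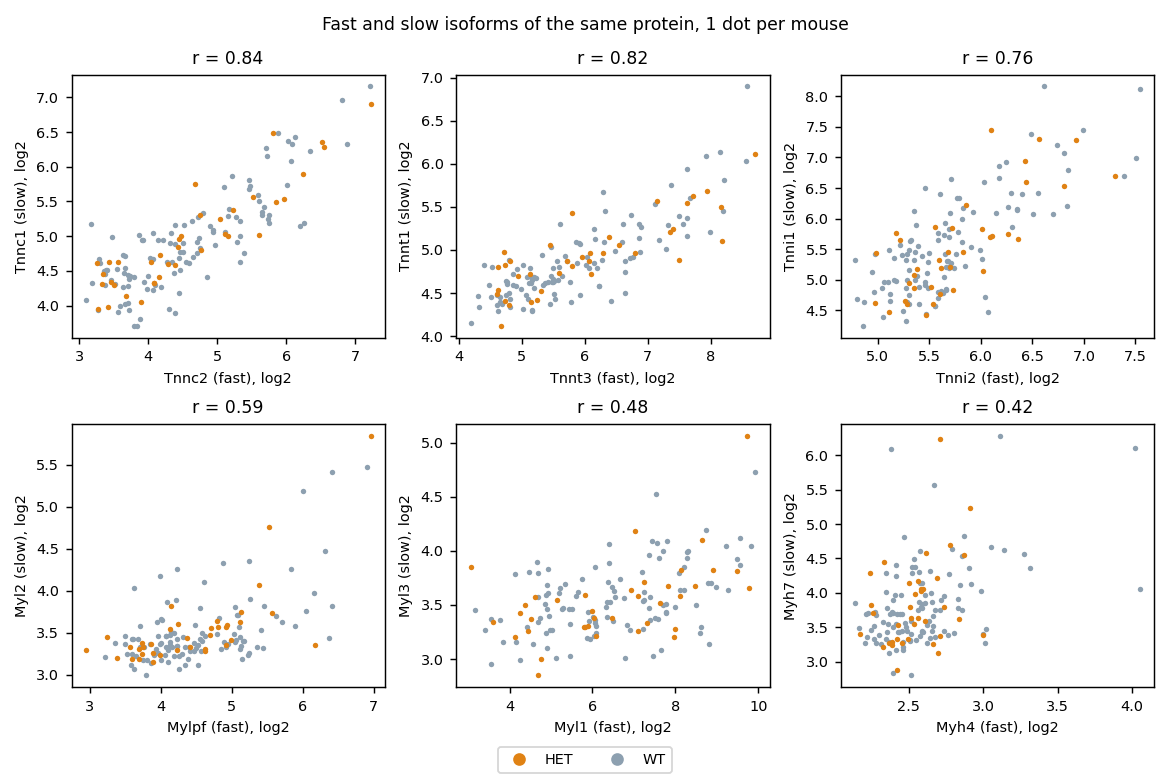
Log2 intensity of the slow isoform (y axis) against that of the fast isoform (x axis) in each mouse, for 6 proteins, with HET and WT mice in 2 colours and r computed on residuals after genotype, sex and plate. The troponin pairs in the upper row form narrow bands, whereas in the myosin pairs of the lower row a few mice with high Myl2 or Myh7 stand above the rest.

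Within plates, 16, 13 and 15 of the 23 pairs passed by r on plates 1, 2 and 3. Myh4 and Myh7 passed on plate 3 (0.66), with r at 0.26 on each of plates 1 and 2. Myl1 and Myl3 did not pass on plate 2 (0.26). Leaving out the 2 mice whose first gene lay farthest from its median, 17 of 23 passed, and the 6 isoform pairs had r of 0.83, 0.80, 0.74, 0.51, 0.45 and 0.36, in the order above.

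The remaining covariation was examined after the mean of the 20 shared members had also been removed from each gene, a step chosen after seeing the data. None of the isoform pairs then passed, with r between -0.12 and 0.02 for the 6 that had passed before. Of all 210 pairs of fast and slow members 63 passed (permutation test, adjusted p under 0.05 over the 210), 42 of them positive and 21 negative. Fast members were positive with each other in 25 of 91 pairs and negative in 2, slow members in 7 and 0 of 21, and pairs of a fast and a slow member in 10 and 19 of 98. One sign held on all 3 plates in 39 of the 42 positive and 19 of the 21 negative pairs. By Spearman's rho 51 pairs passed, 47 of them shared with Pearson's r.

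**Figure D4:**
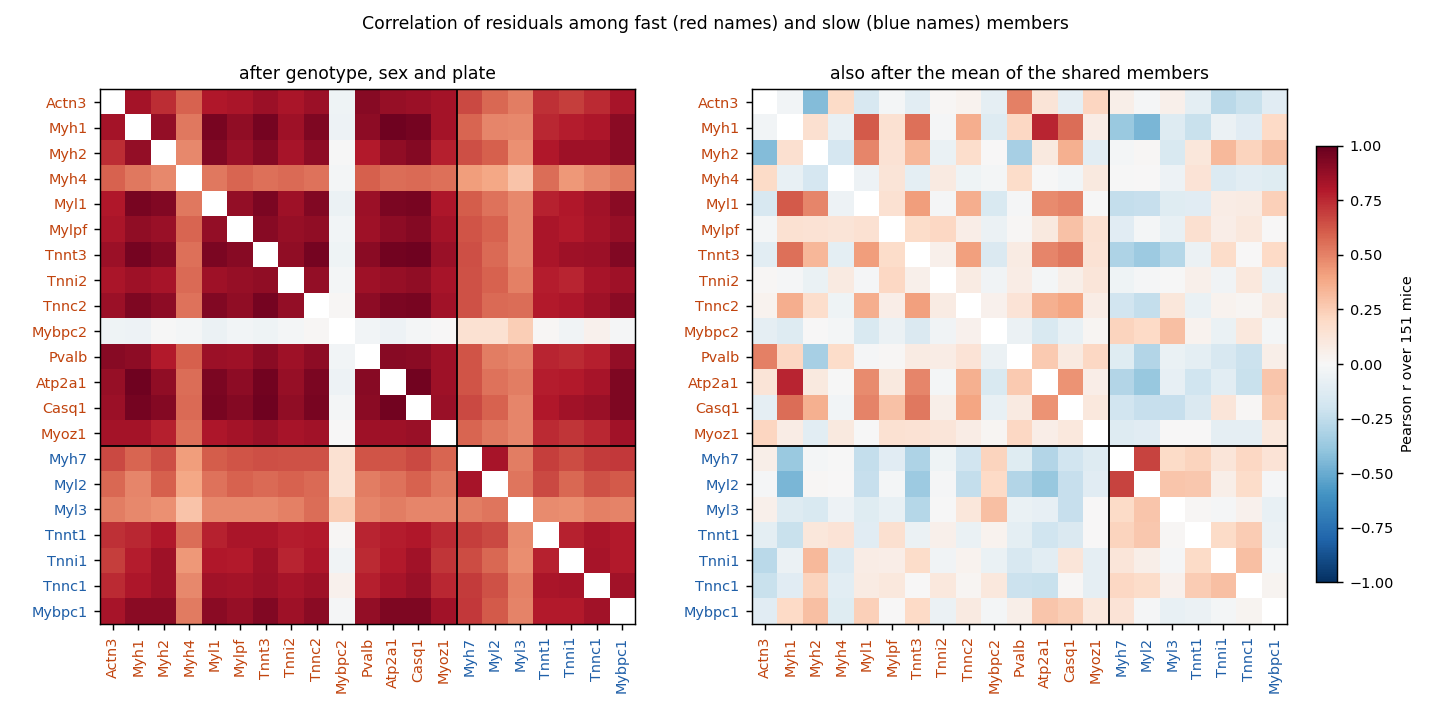
Pearson correlation (colour) over 151 mice for each pair of the 14 fast and 7 slow members, on residuals after genotype, sex and plate (left) and after the mean of the 20 shared members as well (right), with black lines between fast and slow genes. On the left all but the Mybpc2 row are positive; on the right Myh1 with Atp2a1 (0.76) and Myh7 with Myl2 (0.68) stand out, and Myh1 with Myl2 (-0.46) is the most negative.

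The strongest positive pairs were of genes of one fibre type. Myh1 and Atp2a1 had an r of 0.76 (rho 0.76; 0.79, 0.71 and 0.76 on plates 1, 2 and 3). Myh7 and Myl2, the heavy and regulatory chains of slow myosin, had 0.68 (rho 0.54; 0.67, 0.53 and 0.71). Myh1 and Myl1 had 0.62 (rho 0.63), and Actn3 and Pvalb 0.50 (rho 0.49). Permutation adjusted p-values of these 4 pairs were 0.0001 for r and 0.00011 for rho. Leaving out the 2 mice whose first gene lay farthest out, r was 0.74, 0.64, 0.58 and 0.48.

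Of the 21 negative pairs, 19 joined a fast and a slow member, and the other 2 joined Myh2 to Actn3 and to Pvalb. Myh2 was positive with the fast genes Myl1 (0.49), Casq1 (0.36) and Tnnt3 (0.33). Myh1 and Myl2 had an r of -0.46 (rho -0.37; -0.44, -0.44 and -0.50 on plates 1, 2 and 3), and Myh1 and Myh7 -0.37 (rho -0.29). Actn3 and Myh2 had -0.43 (rho -0.41), and Myh2 and Pvalb -0.33 (rho -0.33). Permutation adjusted p-values lay between 0.0001 and 0.00016 for r and between 0.00011 and 0.0016 for rho, and without the 2 farthest mice the 4 values were -0.37, -0.30, -0.39 and -0.32. Myh2, the IIa heavy chain, is found in fast fibres that are also oxidative, whereas Actn3 and Pvalb mark the most glycolytic ones. Actn3 did not pass with the IIx and IIb heavy chain genes Myh1 (-0.03) and Myh4 (0.19). A part of fibre subtype in these values was not tested. Of the slow members, Myl2 was negative with 7 fast members and positive with 1, and Myh7 with 4 and 1. Tnnc1 was negative with 3 and positive with 1, Myl3 with 2 and 1, Tnnt1 with 2 and 0, Tnni1 with 1 and 1, and Mybpc1 with 0 and 5. All members share the arrays, and the pairs share genes, so the counts are not of independent relations. With the square of the shared mean removed too, 40 pairs were positive and 15 negative, and 44 of the 63 passed with the same sign. Among the 98 pairs of a fast and a slow member, 6 were then positive and 13 negative, and 15 passed in both fits with the same sign. In that fit r was 0.39 for Myh1 and Myl1, 0.48 for Actn3 and Pvalb and -0.33 for Actn3 and Myh2. Some values of Myh1 changed with the square: r with Actn3 went from -0.03 to 0.21, and with Myh2 from 0.16 to -0.15. For the other pairs named above the r of that fit is not given here, so whether they hold in it is not shown.

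How much of a member's variance was left after the shared mean differed widely. It was 5.96% for Tnnt3, 6.02% for Casq1 and 7.92% for Atp2a1. For the slow myosin genes it was 48.7% (Myh7), 57.6% (Myl2) and 69.5% (Myl3), for Myh4 65.7%, and for Mybpc2 99.998%. The genes with most variance left had low medians, near or under 3.27: 3.69 (Myh7), 3.39 (Myl2), 3.51 (Myl3), 2.54 (Myh4) and 2.83 (Mybpc2). Tnnt3, Casq1 and Atp2a1 had medians of 5.63, 4.82 and 5.65. Other members did not follow the order of level. Actn3, with a median of 3.72, had 20.4% left, and Pvalb, with a median of 3.97, had 15.1%. Tnni1, with a median of 5.42, had 28.3% left, more than Mylpf (15.2%, median 4.34). Whether the variance left depends on level was not tested. How much of the variance left is measurement noise was not tested.

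Other muscle genes followed the members in part. Among 35 measured further genes of the sarcomere and its upkeep, 21 correlated above 0.5 with the mean of the members (median r 0.64). They included Klhl41, a protein of the myofibril's assembly (0.96), Sgca, a sarcoglycan of the membrane complex (0.88), Tmod4, a cap of the thin filament (0.87) and Tpm2, a tropomyosin (0.84). Fbxo32 and Jsrp1 had r of -0.10 each. Of 10 further slow fibre genes, 4 did, among them Csrp3 (0.89) and Myoz2 (0.87). Atp2a2, the calcium pump of slow fibres, had an r of -0.12 and lay between 9.47 and 10.04 in all mice, and is also made in keratinocytes. Of 6 embryonic and neonatal genes 4 were above 0.5, with Myh8 at 0.70 and Myh3 at 0.62.

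Most of the 9 genes listed for satellite cells and myogenic factors did not follow, while some of the nerve contact did. Pax7, the marker of satellite cells, had an r of -0.05 with the mean of the members, and Myod1, which drives myogenic commitment, 0.20. Mef2c (0.80) and Myf6 (0.74), factors that stay active in mature fibres, were the 2 of 9 above 0.5. At the neuromuscular junction 4 of 9 were, led by Musk (0.75) and Chrna1 (0.74), the organising kinase and the acetylcholine receptor subunit. None of the 4 cardiac markers was. In the tested pairs, Ckm and Chrna1 had an r of 0.67 (rho 0.62), with permutation adjusted p-values of 1.5e-05 and 1.9e-05. Ckm did not pass with Pax7 (r -0.08, rho -0.06, permutation adjusted p = 0.41 and 0.53) or Myog (r 0.09, rho 0.08, permutation adjusted p = 0.32 and 0.39). The medians of Myog (3.12) and Myf5 (2.89) lay under 3.27, so a low r of these dim probe sets says little.

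Markers of tissues that lie beside muscle moved with the members to a lesser degree. Of 8 tendon genes 4 correlated above 0.5 with their mean, Cilp2 (0.66) and Comp (0.59) first, and of 10 smooth muscle genes 4, Myh11 (0.67) and Cnn1 (0.62) first. Tendon genes had a mean level per mouse of 5.14 to 7.27 in HET mice, against 5.21 to 7.70 in WT mice. Smooth muscle genes had 5.05 to 6.51 in HET mice, against 5.11 to 6.75 in WT mice. Both ranges overlapped almost fully between genotypes, and 0 genes of either list were called in that comparison. The medians of r were 0.38 for 6 endothelial, 0.30 for 6 fibroblast, 0.33 for 4 nerve, 0.23 for 8 cartilage and bone and 0.19 for 6 fat cell genes, and -0.18 for 6 epidermal and -0.01 for 6 hair genes. Drp2, of Schwann cells (0.53), was the only gene of these last 7 lists above 0.5. For all genes but the members the median was -0.03.

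**Figure D5:**
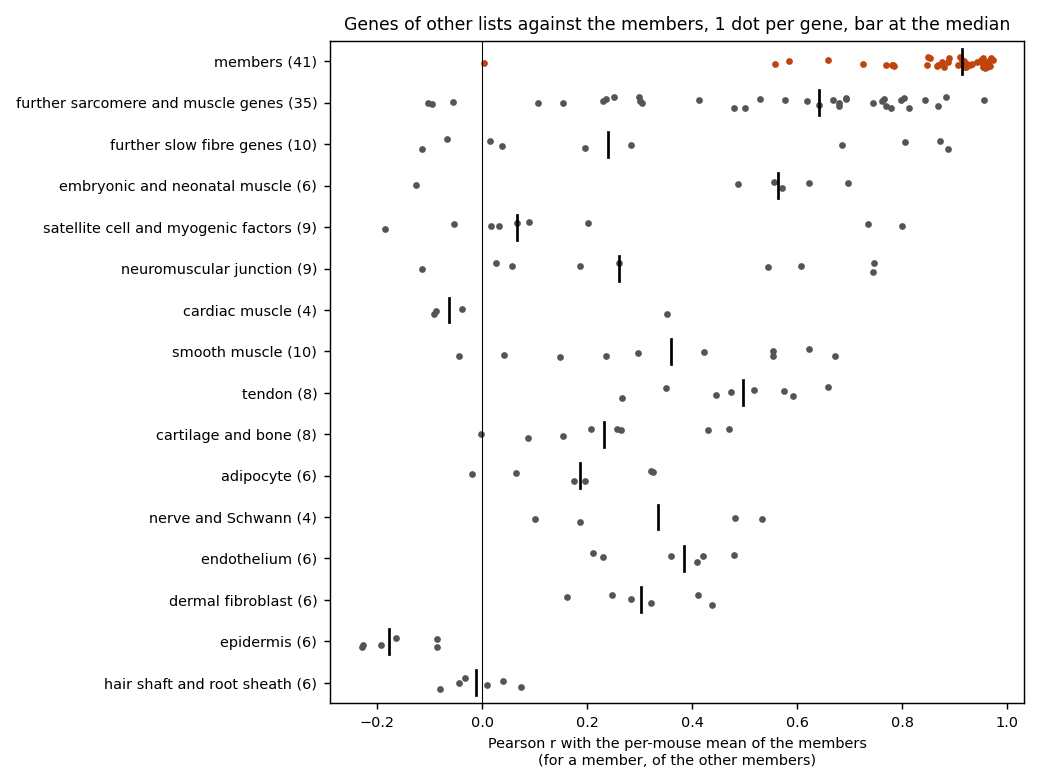
Pearson r over 151 mice (x axis) of each gene with the per-mouse mean of the members, for the members themselves (against the other members) and for the genes of 15 further lists (rows, number of genes in brackets), with a bar at each median. Members lie mostly above 0.7, with Mybpc2 at 0.00, and epidermal genes all lie below 0.

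In the tested pairs, Ckm had an r of 0.63 with Myh11 (rho 0.60) and 0.50 with Acta2 (rho 0.49), both smooth muscle genes, and of 0.55 with Fmod (rho 0.51) and 0.44 with Tnmd (rho 0.35), both tendon genes. It was 0.38 with the endothelial gene Pecam1 (rho 0.35) and 0.36 with the collagen gene Col1a1 (rho 0.33). Permutation adjusted p-values of these 6 pairs were at most 5.7e-05 for r and 0.00014 for rho. Acan, of cartilage, had 0.20 (rho 0.21, permutation adjusted p = 0.017 and 0.012), but did not pass within plate 2 (0.26) or plate 3 (-0.05). Col1a1 did not pass within plate 3 (0.22), nor Pecam1 in males alone (0.23), where Pax7 did (-0.25, permutation adjusted p = 0.04). Adipoq (r 0.05, rho 0.03), Krt14 (-0.12, rho -0.14) and Krt25 (-0.01, rho 0.01) did not pass, with permutation adjusted p of at least 0.12.

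Between the sexes, where 39 members were lower in males without being called, some marker genes of other tissues were called. Over all genes 3.62% were called in that comparison. The counts were 2 of 10 smooth muscle, 2 of 6 fat cell, 1 of 4 nerve, 2 of 6 epidermal and 1 of 6 hair genes. Of 6 fibroblast genes 3 were higher and 1 was lower. In the smooth muscle list Synm (0.08) and Lmod1 (0.06) were higher in males without being called. Of the genes listed for smooth muscle, Tagln (-0.32, limma adjusted p = 0.000962) and Hhip (-0.65, limma adjusted p = 6.08e-05) were lower in males, and Hhip had an r of only -0.04 with the mean of the members. Also lower in males were the fat cell genes Adipoq (-0.30, limma adjusted p = 0.0068) and Fabp4 (-0.26, limma adjusted p = 0.0345), and Drp2 (-0.32, limma adjusted p = 0.00334). The fibroblast collagens Col1a1 (0.24, limma adjusted p = 0.00542), Col1a2 (0.20, limma adjusted p = 0.0335) and Col3a1 (0.26, limma adjusted p = 0.000373) were higher in males, whereas Lum of the same list was lower (-0.28, limma adjusted p = 0.0476). The epidermal genes Krt14 (0.07, limma adjusted p = 0.0112) and Krt1 (0.11, limma adjusted p = 0.0391) were higher in males, and the hair gene Krt25 (-0.36, limma adjusted p = 0.0235) was lower. Smooth muscle genes had a mean level per mouse of 5.05 to 6.31 in males, against 5.19 to 6.75 in females, and fat cell genes of 3.96 to 5.66 in males, against 4.28 to 5.94 in females. Their part in the members' differences was not tested.

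The 10 genes outside the list with the highest r with the mean of the members over the 151 mice were Klhl41 (0.96), Cap2 (0.91), Pdlim3 (0.91), Pde4dip (0.91), Fhl1 (0.89), Csrp3 (0.89), Sgca (0.88), Tmem182 (0.88), Hspb6 (0.88) and Myoz2 (0.87). Klhl41 ran from 3.43 through 5.04 to 8.36 and Fhl1 from 5.96 through 7.92 to 10.7. Of all 18769 other genes, 26 had an r above 0.8.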

How the data were processed

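RNA of snap-frozen tail skin was hybridised to Affymetrix arrays, 1 per mouse. The authors deposited log2 values made with RMA (background correction, normalization between arrays and summary per probe set) per the submitters' processing notes. Its version, the array's build and any adjustment for plate were not given in those notes or labels. Of 35556 probe sets, 171 were empty, and 21201 had 1 gene symbol, 1881 several and 12303 none. The probe set with the highest mean stood for each of 18810 genes. The members, gene lists and pairs were chosen with earlier results of these data known.

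Genotype, sex and plate were fitted together in R 4.3.3 by lmFit and trended eBayes of limma (3.58.1), with p-values adjusted by Benjamini-Hochberg over all genes and calls at 0.05. Correlations used residuals and 100000 permutations (scipy 1.17.1, numpy 2.4.6 and pandas 2.3.3 under Python 3.11.15), and both were checked on simulated data. All members are named, list genes by their r with the mean of the members. Mice are separate animals, and their number limits the precision. Chromosomes, gene order and promoters came from RefSeq (GRCm38.p6). Alternatives were other scalings, filters, probe sets, single plates, sexes and genotypes, and outlier-labelled arrays.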

Additional observations from a re-analysis of the deposited data

How the results depend on the processing

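The count of called members was 0 in every comparison under every alternative run, which were median centring, quantile normalization, outlier-labelled arrays included, genes with a mean above the median only (10 members left), the mean of all probe sets, eBayes without trend, plate as a random block, and single plates, sexes or genotypes. Without a covariate, the median HET minus WT difference of the members lay between -0.04 (females alone) and 0.21 (males alone), and the median male minus female difference between -0.21 and 0.05 (HET alone). Over all genes the count called between HET and WT was 21. It was 0, 18 and 0 on plates 1, 2 and 3, 0 in males alone and 10 in females alone. Between males and females it was 680, and 52 and 72 on plates 1 and 2 and 26 in HET alone, where fewer mice were fitted. The F-test of plate called 4 genes, 2 with dim genes left out and 8 in females alone. Of the 23 pairs of genes 17 passed, and 13 to 17 on single plates, in single sexes and under other scalings. With the mean of the shared members removed, or that mean and its square, 0 of the 8 pairs without a shared member passed, alternatives added after seeing the data. The members' median SD lay between 0.677 and 0.724. No paired analysis was possible because the labels give each mouse a number of its own and none is shared between groups. Members with medians near the lower quartile of the arrays (Myh4, Mybpc2 and Xirp2) can show little decrease, and the alleles at the members' loci were not used here.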
